A study of Mus musculus with 29 samples.

Results

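The genes described here encode subunits of the mitochondrial respiratory chain and of ATP synthase, together with the Ndufaf assembly factors of complex I. They were taken by symbol, as all annotated genes whose names start with Nduf, Sdh followed by a letter from a to d, Uqcr, Cox4 to Cox8 or Atp5, apart from Cox7a1. This gave 89 of the 18193 annotated genes on the array, spread over 19 chromosomes. By complex there were 34 genes of complex I, 4 of complex II, 8 of complex III, 18 of complex IV, 17 of complex V (ATP synthase) and 8 Ndufaf assembly factors. Ndufa4 and Ndufa4l2 were counted with complex IV. A filter on low signals kept 86 of the 89 genes, and Ndufb4, Cox7b2 and Cox8b did not pass it.

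RNA came from lung tissue of mice on a mixed 129/Bl6 background, all carrying CCSP-rtTA, a transgene that places the tetracycline-controlled activator rtTA under an airway epithelial promoter. TI-K primary tumours (8 arrays) also carried TRE-KrasV12, and TI-KM primary tumours (14 arrays) carried TRE-KrasV12 and TRE-Mad2, both under a tetracycline-responsive element. Recurrences (6 arrays) had the TI-KM genotype, and the series title places such relapse after withdrawal of the oncogene. Normal lung was 1 array from a mouse with CCSP-rtTA only. The primary tumours were labelled adenocarcinoma or adenoma. The labels give no age, dose or time. TI-KM primaries 1 and 2 share the number 76 in their titles, so they may come from 1 animal. Apart from that, nothing says which samples came from separate mice, and p-values measure only the spread between these samples.

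The respiratory chain passes electrons from NADH (complex I) and succinate (complex II) through complex III and cytochrome c to complex IV, which reduces oxygen. Complexes I, III and IV pump protons, and complex V uses the resulting gradient to make ATP. Nuclear genes encode most subunits and mitochondrial DNA the rest, so the nuclear genes of a complex are often expressed together. Their level follows the mitochondrial content of a tissue, which is high in heart, muscle and brown fat and moderate in lung, where alveolar type II cells are among the cells rich in mitochondria.

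Each value is a signal of 1 probe set (a set of short oligonucleotides against 1 transcript) on a linear scale, with the array mean set to a common target by the authors. A log2 difference is a difference of mean log2(signal + 20), and a gene was called changed at a limma adjusted p below 0.05 over 14602 genes. The arrays fell into sets that do not fully cross the groups, since only the last set below holds TI-K and TI-KM tumours together. The signal of the 18S ribosomal RNA control exceeded 12000 in 6 TI-KM primaries and 4 recurrences. Normal lung, at 12569, also exceeded 12000 but was kept apart from these sets. Title numbers were above 6000 in 5 TI-K primaries. The remaining 13 tumours (3 TI-K, 8 TI-KM primaries, 2 recurrences) had neither property and are called the remaining tumours below. Mad2l1, the mouse gene for Mad2, had a signal of 573 to 1478 in TI-K primaries and 492 to 1271 in TI-KM primaries. Its log2 difference was -0.29 ± 0.22 (SE; adjusted p = 0.398 by limma), so its probe set did not mark the TRE-Mad2 groups.

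Lung markers were present in every group. The summed signal of 7 alveolar type II genes was 49604 in normal lung, 116485 to 170468 in TI-K primaries, 98342 to 153199 in TI-KM primaries and 71182 to 142978 in recurrences. The normal lung array also carried genes that mark brown fat. Their summed signal was 58604, against 420 to 1164 over the 28 tumours, and 6 of 6 genes measured were above every tumour. Ucp1, the uncoupling protein that defines brown fat, was at 27200 in normal lung and at 42.9 or less in every tumour. The 6 genes of general fat that were annotated summed to 59520 in normal lung and to 1360 to 10346 in tumours.

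The clearest pattern was between normal lung and the tumours. Of 86 genes, 51 were lower in TI-K primaries than in normal lung, where 6.79% of all genes tested were lower, and the median log2 difference was -1.30 against -0.00 over all genes. In TI-KM primaries 43 were lower (background 7.16%), with a median of -1.08. In recurrences 47 were lower (background 6.06%), with a median of -1.22. No member was called higher in any of these comparisons, in which 66, 63 and 67 members had an unadjusted p below 0.05. The share of all genes at that unadjusted level was not counted, here or in the comparisons below. All 3 comparisons use the same normal lung array, so they are not independent, and 41 members were called lower in each. That array has no replicate, so its spread was taken from the tumour groups, and the p-values against it leave out the variation between normal lungs.

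The same pattern appeared without a test. Normal lung lay above every one of the 28 tumours for 65 of the 86 members, against 12.4% of all genes. It lay below every tumour for 1 member, Ndufb1, an accessory subunit of complex I, against 12.6% of all genes. All 6 brown fat genes measured, 5 of 6 general fat genes and 5 of 5 endothelial genes were above every tumour in the same array. The part of these cell types in the members' difference was not tested. In bulk tissue, fewer cells of a type and less RNA per cell cannot be told apart. Among the remaining tumours alone, 54 members were lower in TI-K primaries (background 11.1%), 58 in TI-KM primaries (12.2%) and 56 in recurrences (9.02%). In each of these fits 2 members were called higher, for which the share of all genes is not given here. The medians over members were -0.89, -1.06 and -1.16.

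**Figure D1:**
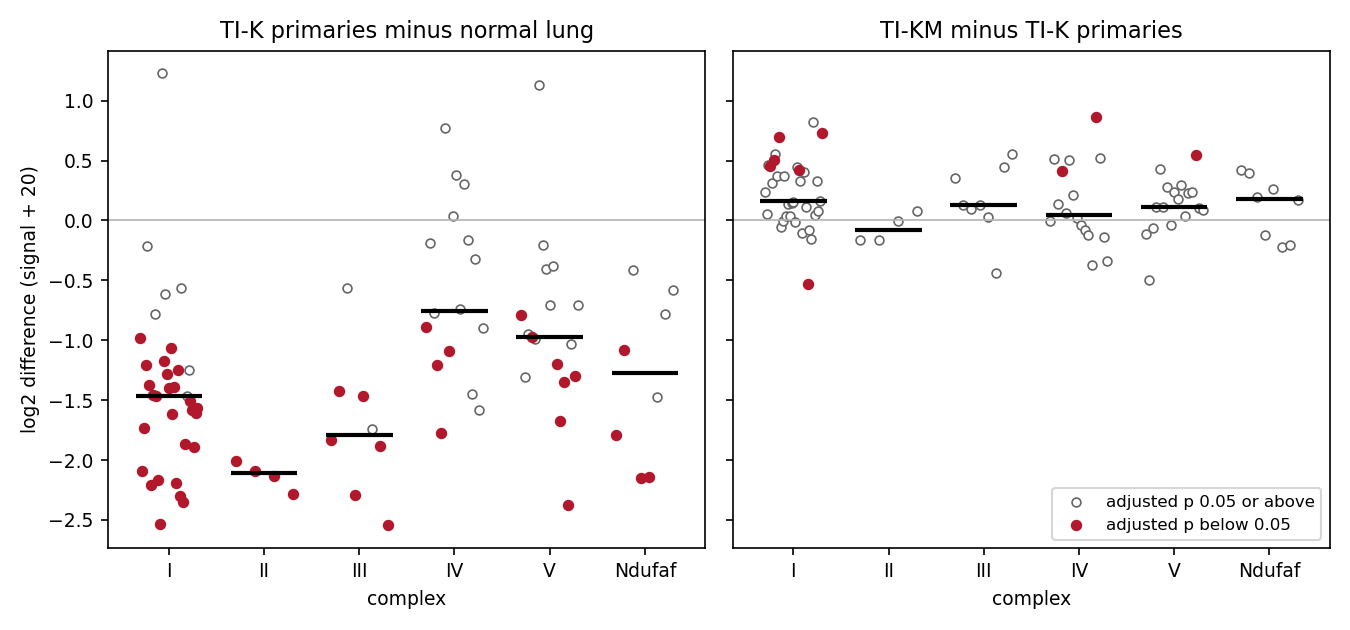
Each point is 1 gene, placed by complex, with its log2 difference of signal + 20 on the vertical axis for TI-K primaries minus normal lung (left) and TI-KM minus TI-K primaries (right). Filled red points had a limma adjusted p below 0.05 and black bars are medians; all 4 genes of complex II are red on the left, and on the right 9 points are red, 8 above 0 and 1 below.

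Complex II differed most evenly. Its subunits couple the oxidation of succinate in the citric acid cycle to the chain. All 4 genes were called lower in each tumour group, with median log2 differences of -2.11 in TI-K primaries, -2.19 in TI-KM primaries and -2.14 in recurrences. Sdhb, the iron-sulphur subunit (chr4:140961271-140979198, GRCm38.p6), had a signal of 19934 in normal lung. Its lowest, median and highest signals were 3954, 4752 and 5410 in TI-K primaries, 2427, 4223 and 5318 in TI-KM primaries and 3235, 4351 and 4783 in recurrences. No tumour came near the normal lung value, and the tumour groups overlapped. Sdhb was 4.27-fold lower in TI-K primaries (log2 difference -2.09 ± 0.28 SE, limma adjusted p = 2.74e-06). Sdha, the flavoprotein that oxidises succinate, was at 19055 in normal lung and at 3387 to 5942 in TI-K primaries, a 4.01-fold difference. The membrane anchors Sdhc and Sdhd were 4.37-fold and 4.86-fold lower in TI-K primaries. The other probe set of Sdhd gave smaller log2 differences of -1.42 in TI-K primaries, -0.41 in TI-KM primaries and -0.46 in recurrences. Its call in recurrences was lost without recurrence 2, 3 or 4, with limma adjusted p up to 0.0565.

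Complex III, which passes electrons to cytochrome c, had 6 of 8 genes lower in TI-K primaries and 7 of 8 in TI-KM primaries and in recurrences, with medians of -1.79, -1.46 and -1.61. All 8 genes were higher in normal lung than in every tumour. Uqcrc1, a core subunit, was 4.90-fold lower in TI-K primaries (-2.29 ± 0.36 SE, limma adjusted p = 4.56e-05). Uqcrc2, the other core subunit, was at 28132 in normal lung, at 8471 to 13190 in TI-K primaries, at 8795 to 13097 in TI-KM primaries and at 7679 to 10733 in recurrences. Uqcrq, a small subunit, had the largest decrease in TI-K primaries, 5.83-fold (-2.54 ± 0.45 SE, limma adjusted p = 1.94e-04). Its signal was 13431 in normal lung and 1266 to 3775 in TI-K primaries. That decrease belonged to 1 probe set, since its 3 other probe sets gave log2 differences of -0.12 to 0.26. Uqcrfs1, the Rieske iron-sulphur protein, was lower in TI-KM primaries (-2.19) and recurrences (-2.33), and its difference of -1.74 in TI-K primaries was not called (limma adjusted p = 0.0812).

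Complex I, the NADH dehydrogenase, had 26 of 33 genes lower in TI-K primaries, 21 in TI-KM primaries and 23 in recurrences, with medians of -1.46, -1.24 and -1.32. Ndufs1, the largest iron-sulphur subunit of the electron-input arm (chr1:63143592-63176822), was at 8545 in normal lung. Its lowest, median and highest signals were 1128, 1930 and 2073 in TI-K primaries, 617, 1203 and 1559 in TI-KM primaries and 949, 1316 and 1878 in recurrences. No tumour came near the normal lung value. Ndufs1 was 5.09-fold lower in TI-K primaries (-2.35 ± 0.39 SE, limma adjusted p = 8.23e-05) and 7.35-fold lower in TI-KM primaries (-2.88). Ndufab1, the mitochondrial acyl carrier protein and a complex I subunit, was 5.80-fold lower in TI-K primaries (-2.54 ± 0.35 SE, limma adjusted p = 4.59e-06), and its 4 other probe sets ranged from -3.79 to -0.08. The accessory subunits Ndufc1 and Ndufa5 were 4.92-fold and 4.61-fold lower in TI-K primaries.

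The exceptions in complex I were few. Ndufa2, Ndufa7, Ndufb1, Ndufb7, Ndufc2 and Ndufs5 were not above every tumour in normal lung. Ndufa2 had signals of 10229 in normal lung and 6245 to 14134 in tumours, with log2 differences of -0.21 in TI-K primaries, 0.10 in TI-KM primaries and -0.18 in recurrences. Ndufb1 was at 60.5 in normal lung, at 104 to 284 in TI-K primaries, at 118 to 294 in TI-KM primaries and at 118 to 506 in recurrences. Its difference of 1.23 in TI-K primaries did not pass the test (limma adjusted p = 0.0976). Normal lung sat below the 40th percentile of its own array for this gene, which was 88.1.

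Complexes IV and V stood closer to normal lung. Complex IV here includes the tissue-restricted forms Cox4i2, Cox6a2, Cox6b2, Cox8c and Ndufa4l2, and also Cox7c. None of these genes lay above every tumour in normal lung, and their part in the count and median of the complex was not tested. Of 16 complex IV genes, 4 were lower in TI-K primaries, 2 in TI-KM primaries and 4 in recurrences, with medians of -0.76, -0.61 and -0.75. Of all genes tested, 6.79%, 7.16% and 6.06% were lower in these comparisons. Cox6a1, the widely expressed form of subunit VIa, was at 23631 in normal lung. It was at 5714 to 7800 in TI-K primaries, at 5548 to 11268 in TI-KM primaries and at 5659 to 13908 in recurrences, and it was 3.42-fold lower in TI-K primaries (-1.78 ± 0.35 SE, limma adjusted p = 6.04e-04). Cox4i1, the common form of subunit IV, was called lower in all 3 groups with smaller differences of -0.89, -0.89 and -0.92. Cox6c and Cox7a2l lay within the range of the tumours in normal lung, with log2 differences between 0.03 and 0.38.

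Of 17 ATP synthase genes, 7 were lower in TI-K primaries, 6 in TI-KM primaries and 5 in recurrences, with medians of -0.97, -0.86 and -0.93. The shares over all genes were 6.79%, 7.16% and 6.06%. Atp5a1, the alpha subunit of the catalytic head, was called lower in all 3 groups (-0.79, -0.91 and -0.93). Atp5b, the catalytic beta subunit, was at 22002 in normal lung and at 1158 to 10586 in tumours, and its differences of -1.31, -1.80 and -1.30 were not called. Atp5md, a small membrane subunit, had the largest difference of the complex, 5.18-fold in TI-K primaries (-2.37 ± 0.49 SE, limma adjusted p = 0.00101). The 3 genes of the proton-carrying c subunit encode the same mature protein, and none was called against normal lung. Atp5g1 was at 346 in normal lung and at 337 to 1206 in tumours, with a difference of 1.13 in TI-K primaries (limma adjusted p = 0.105). Atp5g2 and Atp5g3 had differences of -0.20 and -0.40 there.

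Among the 8 Ndufaf genes, which help to assemble complex I, 4 were lower in TI-K primaries, 3 in TI-KM primaries and 4 in recurrences. The shares over all genes were 6.79%, 7.16% and 6.06%. Ndufaf4 fell from 3130 in normal lung to between 320 and 1177 in tumours, with log2 differences of -2.15, -2.27 and -2.42 that were all called. Ndufaf3 and Ndufaf8 were not above every tumour in normal lung.

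**Figure D2:**
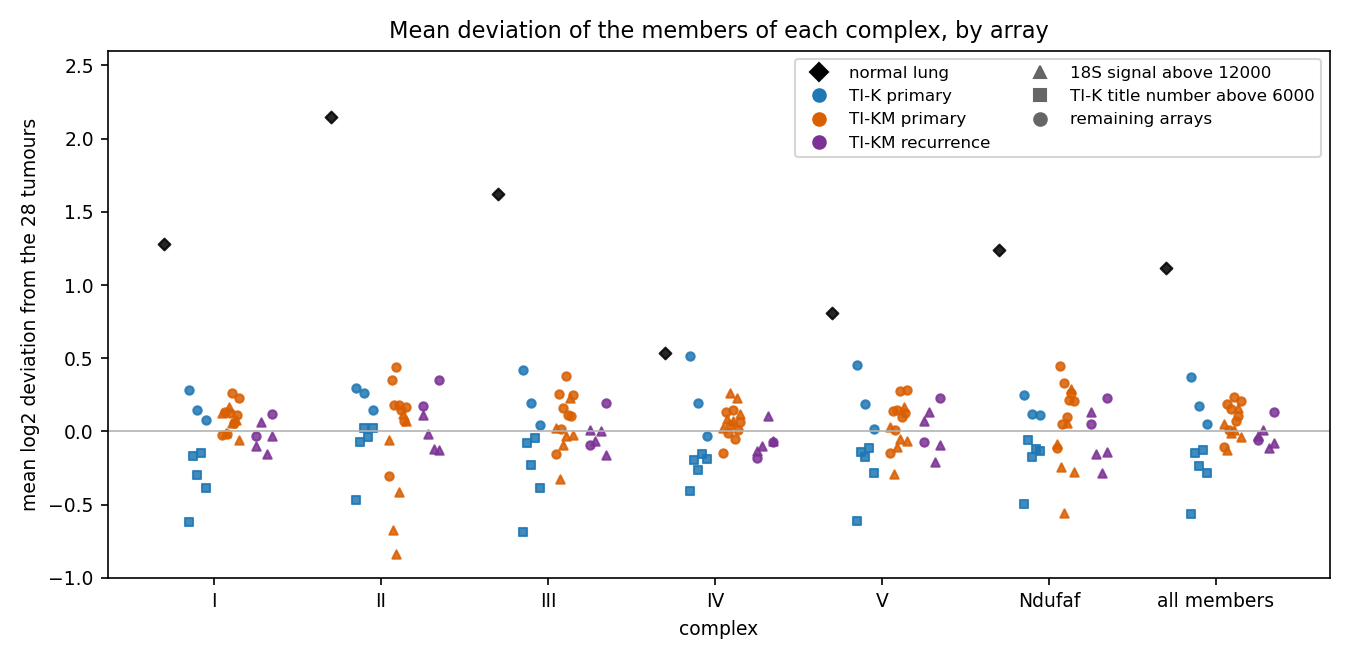
Each point is 1 array; the vertical axis gives the mean, over the genes of a complex, of log2(signal + 20) minus that gene's mean over the 28 tumours, with colour for the group and shape for the set of arrays. Normal lung (black) stands at 2.15 for complex II, 1.62 for complex III, 1.28 for complex I, 0.81 for complex V and 0.53 for complex IV, and TI-K arrays with title numbers above 6000 (squares) lie below the remaining TI-K arrays (circles) over all members.

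Related mitochondrial genes were read beside the members. Of all genes tested, 6.79% were lower in TI-K primaries than in normal lung, 7.16% in TI-KM primaries and 6.06% in recurrences. In TI-K primaries 6.7% were higher. All 16 genes tested of the pyruvate dehydrogenase complex and the citric acid cycle, which feed the chain with NADH and succinate, were lower in each tumour group, with medians of -2.43, -2.50 and -2.48. Dlat, a pyruvate dehydrogenase component, had a signal of 11200 in normal lung and 747 to 1264 in tumours (-3.48 in TI-K primaries, limma adjusted p = 2.91e-11). Idh3b, a subunit of the cycle's NAD-dependent isocitrate dehydrogenase, differed by -2.46. Assembly factors outside the symbol rule were lower in 13 of 30 cases in TI-K primaries, 12 in TI-KM primaries and 9 in recurrences, with none called higher (of these, Foxred1 for complex I differed by -2.59 and Uqcc1 for complex III by -1.94 in TI-K primaries). Of 12 mobile carriers and exchangers, 7 were lower and 2 higher in TI-K primaries. The lower ones included Etfdh (-3.24) and Etfb (-2.39), which bring electrons from fatty acid oxidation to the chain. The higher ones were Atpif1, an inhibitor of ATP synthase (1.45), and the mitochondrial creatine kinase Ckmt1 (3.50).

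Other mitochondrial lists differed less, and are set against the 6.79% of all genes tested that were lower in TI-K primaries. Of 16 regulators of mitochondrial genes, 5 were lower and 1 higher in TI-K primaries, with a median of -0.53. Ppargc1b, a coactivator of mitochondrial genes, differed by -3.66 in TI-K primaries, -4.24 in TI-KM primaries and -4.80 in recurrences. Esrra, a nuclear receptor that works with it, differed by -1.87 in TI-K primaries, and Tfb2m, a mitochondrial transcription factor, by -2.14 in TI-KM primaries. Of 76 mitochondrial ribosomal protein genes, 23 were lower and 1 higher in TI-K primaries, with a median of -0.74. Of 42 cytosolic ribosomal protein genes, 2 were higher and 0 lower, with a median of 0.43, where 6.7% of all genes tested were higher.

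**Figure D3:**
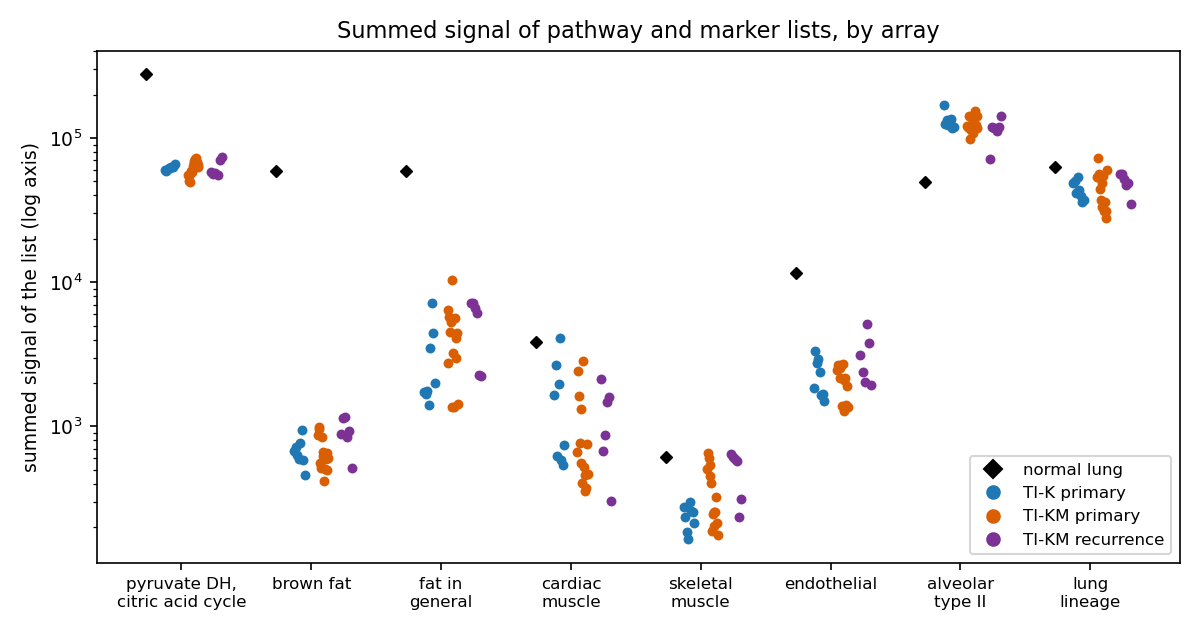
Each point is 1 array and gives the summed signal of a list of genes on a log axis, coloured by group. Normal lung (black) stands at 278004 for the pyruvate dehydrogenase and citric acid cycle list against at most 74264 in tumours, at 58604 for brown fat against at most 1164, and below every tumour, at 49604, for alveolar type II genes.

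Promoters are shown because many members moved together against normal lung and NRF1, a known activator of respiratory genes, binds a palindromic motif. RefSeq promoters (GRCm38.p6, from 250 bases before to 50 after the start) were matched for 73 members. This motif, the palindrome shown in capitals below, was present in 6 of them (8.22%) and in 1.07% of 27025 genes with a promoter. The 4 members with it upstream of the start are printed 5′ to 3′ on the strand of the gene, with the motif in capitals.
Atp5g2, chr15:102671050-102671119, minus strand: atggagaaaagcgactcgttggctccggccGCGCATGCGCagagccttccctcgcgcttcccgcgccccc
Atp5k, chr5:108434410-108434479, minus strand: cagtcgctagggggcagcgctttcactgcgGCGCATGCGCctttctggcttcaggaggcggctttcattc
Cox6a1, chr5:115349081-115349150, minus strand: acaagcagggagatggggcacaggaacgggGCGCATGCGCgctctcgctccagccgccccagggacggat
Ndufaf4, chr4:24897940-24898009, plus strand: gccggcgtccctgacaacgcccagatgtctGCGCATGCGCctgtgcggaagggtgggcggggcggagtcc
Cox6a1, Atp5k and Ndufaf4 were lower in each tumour group than in normal lung, with log2 differences of -1.78, -1.67 and -2.15 in TI-K primaries. Atp5g2 was not called in any of the 3 comparisons, and differences between these genes were not tested. The other motifs were counted on both strands of the same promoters. The ETS motif CCGGAAGT was in 5 of the 73 members (6.85%) and in 4.31% of all genes. The YY1 motif was in 4 members (5.48%) and 0.755% of all genes, and the ERRa motif TCAAGGTCA in 2 (2.74%) and 0.466%. A match is a description of letters, not a binding site.

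Tissue-restricted isoforms differed in how far they were detected. Cox8b, the heart, muscle and brown fat form of subunit VIII, was at 4216 in normal lung and at 6.63 to 11.3 in TI-K primaries, 3.93 to 56.7 in TI-KM primaries and 6.60 to 69.6 in recurrences. It did not pass the filter and was not tested. Its signal in normal lung lay beside Ucp1 and Cox7a1, the muscle and brown fat form of subunit VIIa, which was at 8667 in normal lung and at 222 or less in tumours. Cox7b2, a testis form, was at 28.5 in normal lung and at 56.9 or less in every tumour. Cox6a2, the muscle partner of Cox6a1, was at 209 in normal lung and at 138 to 1969 in tumours, and its difference of 0.77 in TI-K primaries was not called (limma adjusted p = 0.582). Cox4i2, the lung-enriched partner of Cox4i1, was at 67.7 in normal lung and at 32.1 to 232 in tumours. Cox6b2, the testis partner of Cox6b1, was at 142 in normal lung and at 83.0 to 304 in tumours. Ndufa4l2, the hypoxia-inducible relative of Ndufa4, was at 167 in normal lung, with medians of 122 in TI-K primaries, 53.6 in TI-KM primaries and 38.9 in recurrences. None of Cox4i2, Cox6b2 and Ndufa4l2 was called in any of the 6 comparisons between groups.

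Between TI-KM and TI-K primaries, which differ by TRE-Mad2, most members did not differ beyond the spread between arrays. Of 86 members 8 were higher in TI-KM primaries, where 5.5% of all genes were higher, and 1 was lower, where 2.51% were lower. The median log2 difference was 0.13, against 0.08 over all genes. The 5 called genes of complex I (Ndufv3, Ndufa7, Ndufa3, Ndufa13 and Ndufb7), Cox8a and Cox5b of complex IV and Atp5mpl of complex V were higher, by 1.33-fold to 1.81-fold. Ndufs1 was lower by 1.44-fold. Complexes II and III and the Ndufaf genes had no call.

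Cox8a, the widely expressed form of subunit VIII (chr19:7215158-7217616), had the largest difference. In TI-K primaries its signals were 569, 504, 351, 569, 333, 733, 617 and 831, in order of replicate. In TI-KM primaries they ran from 645 to 1771 with a median of 908, and the 6 arrays with a high 18S signal held the 6 highest values, from 1050 to 1771. The 8 remaining TI-KM primaries, at 645 to 962, overlapped the 3 remaining TI-K primaries, at 617 to 831. Over all arrays the log2 difference was 0.86 ± 0.22 (SE), 1.81-fold (limma adjusted p = 0.0184), and Cox8a's other probe set gave 0.61.

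Ndufv3, a small subunit of the NADH-oxidising module (chr17:31520115-31531326), was split within TI-K primaries. Its signals were 2367, 3352, 2951, 3034 and 2600 in the 5 arrays with title numbers above 6000 and 7378, 7022 and 6304 in the other 3. In TI-KM primaries they ran from 5095 to 10356 with a median of 6219. The first 5 TI-K arrays lay below every TI-KM primary, and the other 3 lay within the TI-KM range. The difference was 0.73 ± 0.19 (SE), 1.66-fold (limma adjusted p = 0.0220). Ndufs1 showed the reverse split, at 1912 to 2073 in the 5 TI-K arrays and at 1128 to 1287 in the other 3, against 617 to 1559 in TI-KM primaries (-0.53 ± 0.16 SE, limma adjusted p = 0.0426).

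**Figure D4:**
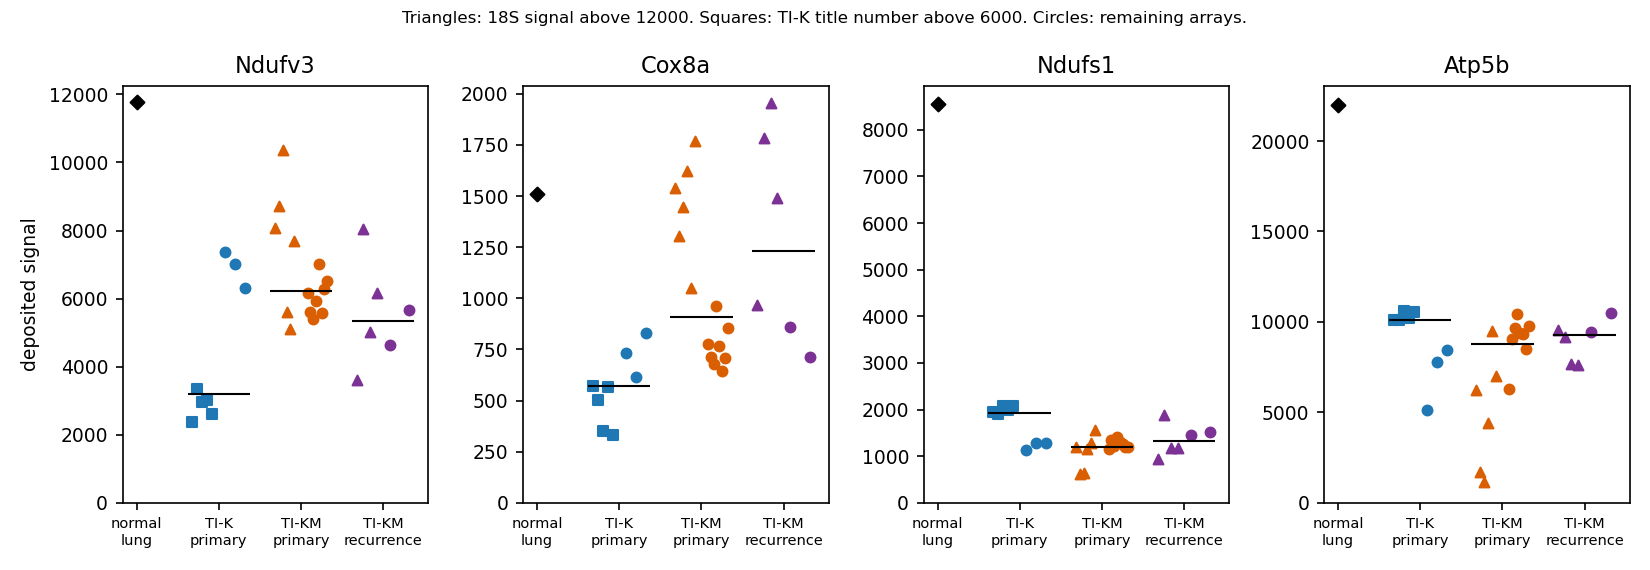
Each panel shows the deposited signal of 1 gene by array on a linear axis from 0, with black bars for the group medians and shapes for the sets of arrays. For Ndufv3 the 5 TI-K squares lie at 2367 to 3352 and the 3 circles at 6304 to 7378; for Cox8a the TI-KM triangles lie at 1050 to 1771 above the circles; Ndufs1 and Atp5b are lowest in 2 TI-KM triangles, with Atp5b at 1158 and 1709.

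None of the 9 calls was kept when the sets of arrays were held fixed. With the sets as a block no member was called and no gene of the 14602 was (0.0%), with 1 member at an unadjusted p below 0.05 and a median of -0.09. Among the remaining tumours alone (3 TI-K against 8 TI-KM primaries) the count was again 0 of 86 (background 0.0%), with 3 members at an unadjusted p below 0.05. Ndufv3 then differed by -0.19, Ndufa7 by -0.23 and Ndufs1 by 0.032, each opposite in sign to the difference over all arrays. Leaving out single arrays moved the count from 9 to as few as 0 (without TI-K 3 or TI-K 5) and as many as 19 (without TI-K 6). Set and genotype are confounded in 11 of these 22 tumours, since no TI-K primary had a high 18S signal and no TI-KM primary was in the set defined by TI-K title numbers. With the block, the comparison thus rests mainly on the 3 TI-K and 8 TI-KM remaining tumours, so the block and the remaining-tumour fits are not independent. With 3 TI-K arrays, a lost call does not show that a difference is absent.

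The sets themselves differed within each primary group. Within TI-K primaries, 35 of 86 members were lower in the 5 arrays with title numbers above 6000 than in the other 3 (background 8.07%) and 3 were higher (7.95%). The median was -0.48, against -0.02 over all genes. The lower genes came from every complex, with 16 of complex I, 1 of II, 3 of III, 7 of IV, 6 of V and 2 Ndufaf genes. Examples were Ndufv3 (-1.27, limma adjusted p = 8.23e-04), Ndufb6 (-1.23), Ndufa12 (-1.02) and Cox5b (-0.80). Ndufs1 (0.69), Atp5b (0.57) and Ndufaf7 (0.59) were higher. The title number is the only label behind this split, and what it stands for was not tested. Fibroblast markers summed to 14290 to 24213 in the 5 arrays and to 6907 to 10722 in the 3, endothelial markers to 1845 to 3325 and 1496 to 1685, and their part in the split was not tested.

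Within TI-KM primaries, 28 members were lower in the 6 arrays with a high 18S signal than in the other 8 (background 12.1%) and 11 were higher (30.2%). The lower genes included Uqcrfs1 (-1.28), Atp5b (-1.19), Sdhd (-1.15) and Ndufa4 (-1.01), and the higher ones Cox8c (1.22), Ndufs5 (1.21), Cox4i2 (0.97), Cox8a (0.91) and Cox6b2 (0.68). The first 4 genes were lowest in TI-KM 3 and TI-KM 2. Atp5b was at 1158 and 1709 in these 2 arrays and at 4393 to 10446 in the other TI-KM primaries. Uqcrfs1 was at 1088 and 1244 there and Sdhd at 478 and 573. The ratio of 3′ to 5′ control signals, which rises as RNA degrades, was highest in the same 2 arrays, at 4.01 and 2.68 on the log2 scale against 1.39 to 2.59 in the others and a group mean of 2.16 ± 0.67 (SD, n = 14), and its part was not tested. Within recurrences no member or other gene differed between 4 and 2 arrays (0.0%).

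Over the 28 tumours, which include all sets of arrays, the median spread was similar between complexes, and single genes within a complex varied. The median log2 range per gene was 1.59 in complex I, 1.58 in II, 1.67 in III, 1.61 in IV and 1.66 in V. The narrowest gene of each complex was Ndufs7 (0.87) in I, Sdhc (0.98) in II, Uqcrc2 (0.78) in III, Cox5a (0.87) in IV and Atp5a1 (0.73) in V, and Ndufaf2, with signals of 235 to 606, among Ndufaf genes. The widest gene of each complex was Ndufs5 (2.98) in I, Sdhd (2.79) in II, Uqcrfs1 (2.68) in III, Cox7c (3.87) in IV and Atp5b (3.17) in V, and Ndufaf6 (3.01) among Ndufaf genes.

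Among related lists, TI-KM primaries had 3 of 30 assembly factors, 2 of 12 carriers, 1 of 16 regulators, 6 of 76 mitochondrial and 7 of 42 cytosolic ribosomal protein genes higher than TI-K primaries, with none lower, where 5.5% of all genes were higher. No pyruvate dehydrogenase or citric acid cycle gene was called. Named by their p, these were Uqcc3 (0.84) and Timmdc1 (0.75), assembly factors of complexes III and I, Slc25a4 (0.32), the ADP and ATP exchanger, Atpif1 (0.53) and Esrra (0.57). As with the members, no gene was called with the sets as a block.

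Recurrences were set against TI-K primaries, from which they differ by TRE-Mad2 and by relapse. Of 86 members 7 were higher, where 12.2% of all genes were higher, and 1 was lower, where 6.73% were lower. The median was 0.03, against 0.11 over all genes. Cox8a was higher by 2.19-fold (1.13 ± 0.27 SE, limma adjusted p = 0.00575), with signals of 970, 1785, 1957, 1491, 860 and 711 in the 6 recurrences. Of the 6 recurrences, 5 were above every TI-K primary. Cox8c, the testis form of the same subunit, was higher by 1.98-fold (limma adjusted p = 0.0190), with 709, 679, 925, 768, 377 and 351 in recurrences against 221 to 446 in TI-K primaries. The other 5 were Atp5g2 (1.64-fold), Atp5mpl (1.61-fold), Ndufab1 (1.54-fold), Ndufa12 (1.48-fold) and the assembly factor Ndufaf1 (1.47-fold). Other probe sets of Atp5g2 (-1.27), Ndufab1 (down to -2.45) and Ndufa12 (down to -1.81) went the opposite way. Of the listed testis markers 2 were tested, and Prm2 was higher in recurrences (0.81) and Prm1 lower (-5.41). All 5 ciliated cell markers were higher (median 1.74), with sums of 427 to 8198 in recurrences and 162 to 896 in TI-K primaries. The part of these cell types in the differences was not tested. Cox7c was the lower gene. Of related genes, Timmdc1 (0.72), Cox17 (0.68), Slc25a4 (0.42), Ogdh (0.43) and Esrra (0.53) were higher and Ppargc1b (-1.15) was lower. None of the 8 calls was kept with the sets as a block, where 0.0959% of all genes were called, or among the remaining tumours (0.13%). In each case 13 members had an unadjusted limma p below 0.05, of which 3 were higher in recurrences and 10 lower. The member median, 0.03 over all arrays, became -0.16 in the block fit. It was -0.15 in the 3 TI-K primaries and 2 recurrences of the remaining tumours. The median over all genes is not given here for these fits. Cox8a then differed by 0.12 with the block and 0.11 among the remaining tumours, and Cox7c by -2.26 and -2.46 (limma adjusted p = 0.0764 and 0.145).

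Between recurrences and TI-KM primaries, which share a genotype, 1 of 86 members differed, Cox7c, which was lower, against a background of 0.219% of genes lower. No member was higher. The median over members was -0.10, against 0.04 over all genes. The next smallest p-values were those of Ndufs7, an iron-sulphur subunit of complex I (-0.31 ± 0.10 SE, limma adjusted p = 0.188), and Ndufaf2 (-0.41 ± 0.16 SE, limma adjusted p = 0.285). Neither passed, and 9 members had an unadjusted p below 0.05. No gene of the related lists was called.

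Cox7c encodes a small nuclear subunit of complex IV (chr13:86044798-86046795, GRCm38.p6). It was singled out with earlier results of these data known. Its signals in recurrences were 36.4, 8.54, 136, 43.0, 14.3 and 11.3, in order of replicate, with a mean of 41.5 ± 48.2 (SD, n = 6). In TI-KM primaries they were 72.2, 192, 397, 139, 245, 179, 87.2, 310, 48.8, 142, 70.7, 128, 290 and 72.5, with a mean of 170 ± 106 (SD, n = 14). In TI-K primaries they were 217, 180, 228, 224, 221, 313, 190 and 64.6, with a mean of 205 ± 69.2 (SD, n = 8), and normal lung was at 217. Of the 6 recurrences, 5 were below every primary tumour, and recurrence 3 lay within the range of both primary groups.

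The log2 difference of Cox7c between recurrences and TI-KM primaries was -1.70 ± 0.36 (SE), 3.24-fold (limma adjusted p = 0.0314). It kept its direction in the high-18S arrays alone (-1.68, limma adjusted p = 0.320), among the remaining tumours (-2.10, limma adjusted p = 0.247; 0.0822% of genes called) and with the sets as a block (-1.85, limma adjusted p = 0.0109; 0.705% of genes called). Of these only the block passed the threshold. Against TI-K primaries the difference was -2.06 ± 0.40 (SE), 4.18-fold (limma adjusted p = 0.00144). TI-KM and TI-K primaries differed by -0.37 ± 0.33 (SE, limma adjusted p = 0.477). Against normal lung, recurrences differed by -2.23 (limma adjusted p = 0.0638), TI-KM primaries by -0.53 (0.730) and TI-K primaries by -0.16 (0.934).

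These Cox7c signals were low. The tested probe set was also of a type that can match several transcripts, so its signal may not come from Cox7c alone. The probe set lay above the 40th percentile of the array in 23 of 29 cases, and that percentile was 57.8 to 117 in recurrences, 62.5 to 136 in TI-KM primaries and 66.2 to 78.3 in TI-K primaries. With an offset of 100 in place of 20 before the log2, the recurrence difference was -0.89 (limma adjusted p = 0.0865). The call was also lost without recurrence 1, 2 or 5 or TI-KM 13, with adjusted p between 0.0573 and 0.0919. The log2 ratio of 3′ to 5′ control signals was lower in recurrences (1.32 ± 0.45 SD, n = 6) than in TI-KM primaries (2.16 ± 0.67 SD, n = 14). With that ratio as a covariate the difference was -1.36 (limma adjusted p = 0.565). A second Cox7c probe set passed the percentile in 5 arrays and was not tested. Its medians were 52.4 in TI-K primaries, 25.0 in TI-KM primaries and 2.63 in recurrences, with 12.2 in normal lung, and the groups overlapped.

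**Figure D5:**
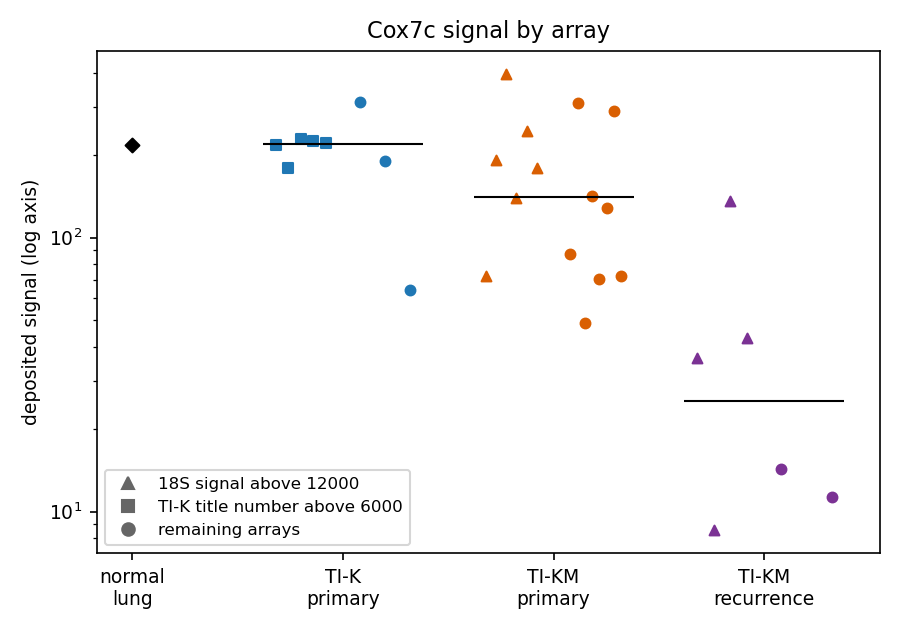
Each point is the deposited Cox7c signal of 1 array on a log axis, with black bars for the group medians and shapes for the sets of arrays. The medians are 219 in TI-K primaries, 141 in TI-KM primaries and 25.4 in recurrences, and recurrence 3 at 136 is the only recurrence inside the range of the primary tumours.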

How the data were processed

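Total RNA from 29 samples was extracted with RNeasy columns, taken through a two-cycle Affymetrix preparation and labelled with biotin, per the labels. The deposited values are intensities, MAS5 signals on a linear scale per the submitters' processing notes, and the authors' scaling shows in a trimmed mean of 500.003 in every array. The series text names the array MOE430A 2.0, and the table holds 45101 probe sets; 34945 named 1 gene, 932 several, 9160 none and 64 were controls. A further 10 probe sets naming a member among several genes were not used.

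Probe sets above the 40th percentile of their own array in at least 6 arrays were kept (31932), and the one with the highest mean stood for each gene. limma 3.58.1 in R 4.3.3 was fitted to log2(signal + 20) of all 29 arrays by group, with a variance trend and Benjamini-Hochberg adjustment over 14602 genes. The difference on this scale understates changes of low genes. The script was tested on simulated data, where it recovered far fewer 2-fold and 4-fold changes against normal lung than between tumour groups. A member not called against normal lung may therefore still differ from it. Levels and figures used Python 3.11.15, pandas 2.3.3, numpy 2.4.6 and matplotlib 3.10.9. The number of arrays per group sets the precision.

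The members, the lists and the attention to Cox7c were chosen with earlier results of these data known. Genes were named by a rule: Cox7c, the called members with the largest changes in each comparison (8 each way between tumours; 8 decreases and 4 increases against normal lung), the widest and narrowest range in each complex, the tissue-restricted isoforms, and 2 called genes by p in each related list; Uqcrc2, Cox4i1, Atp5a1 and other subunits beyond it were named after their values were seen. Alternatives covered array sets, offset, filter, scaling, probe set choice, samples and RNA integrity.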

Additional observations from a re-analysis of the deposited data

Results flagged for a closer look

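In groups of 6 or 8 arrays, 5 of 74 group-by-gene sets held 1 array far from the others, past Dixon's 95% critical value, which chance also passes in some groups. Recurrence 3 had a Cox7c signal of 136, with the next highest recurrence at 43.0; it is the recurrence that overlapped the primary tumours. Recurrence 1 had an Atp5md signal of 1814, with the next at 1285. TI-K 2 had an Ndufs5 signal of 286, with the next at 124. TI-K 6 had a Uqcrc2 signal of 13190, with the next at 10691. TI-K 1 had the lowest Ndufb7 signal of its group, 3707, with the next at 5240.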

How the results depend on the processing

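The counts of members lower than normal lung stayed within 1.5 times of the reported ones in every alternative run, apart from recurrences, where 27 were called with the 2 groups fitted alone. Leaving out 1 tumour array gave median log2 differences over the members of -1.36 to -1.21 in TI-K primaries against normal lung. These were -1.10 to -1.04 in TI-KM primaries and -1.25 to -1.17 in recurrences. The normal lung array was kept in every fit, so these ranges cannot show how far the differences depend on it. Between TI-KM and TI-K primaries, 0 members were called with the sets as a block, 0 among the remaining tumours, 4 with the tumours of title number 76 averaged and 0 to 19 with 1 array left out; the last count fell to 0 or 1 without any of TI-K 1 to 5, fell to 3 to 5 without any of TI-KM 1 to 5 and rose to 14 without TI-K 8. In recurrences set against TI-K primaries there were 0 calls with the block, 0 among the remaining tumours and 4 to 11 with 1 array left out (4 without recurrence 2). For recurrences against TI-KM primaries the count was 0 among the remaining tumours, 0 in the high-18S arrays, 0 with an offset of 100, 0 without probe sets that can match several transcripts (which left no Cox7c probe set), 0 with 2 groups alone, 0 with the 3′ to 5′ ratio as a covariate and 0 to 1 with 1 array left out; at an unadjusted limma p below 0.05 the first 6 of these settings gave 4, 8, 9, 9, 9 and 2 members in turn.

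Some signs turned. With the block and among the remaining tumours, TI-KM minus TI-K differences were -0.17 and -0.19 for Ndufv3, -0.24 and -0.23 for Ndufa7, -0.17 and -0.14 for Atp5mpl, -0.035 and -0.063 for Ndufa3, -0.088 and -0.087 for Cox5b, and 0.025 and 0.032 for Ndufs1. Recurrences minus TI-K primaries gave -0.12 and -0.20 for Atp5mpl, -0.078 and -0.27 for Ndufaf1, and -0.069 for Ndufab1 among the remaining tumours. With the mean of all probe sets this comparison gave -0.28 for Atp5g2, -0.55 for Ndufab1 and -0.15 for Ndufa12. Without multi-transcript probe sets Ndufa12 gave -1.81, and Uqcrq against normal lung 0.26 in TI-K primaries, 0.94 in TI-KM primaries and 1.40 in recurrences. Cox7c in TI-K primaries against normal lung gave 0.0078 with the covariate and -0.25 to 0.029 with 1 array left out (0.029 without TI-K 8). The cause of these shifts was not tested beyond what each alternative leaves out. The comparison of high-18S arrays alone was not run for TI-K primaries, which hold none, nor the block for normal lung. No paired analysis was possible because the labels give the groups no shared replicate numbers.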
